A study of Mus musculus with 36 samples.

Results

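Fgf21, Klb, Gdf15, Lect2, Enho, Ahsg and Fetub are liver genes for secreted hormones, together with the co-receptor through which FGF21 acts, and their RNA was followed here in mouse livers on single-colour microarrays. The genes were taken by symbol: every non-control probe whose gene name on the array was one of the 7 symbols was used. This gave 9 of the 56605 probes and 7 of the 37074 gene names on the array, and all 7 genes were among the 24102 that were bright enough to be tested. The study asked how fat release from adipose tissue bears on the liver, by removing adipose triglyceride lipase (ATGL, the enzyme that starts the breakdown of stored triglyceride) from white adipose tissue. Mice with this deletion are called AAKO and their controls CTRL. The 36 liver samples came from males of the C57Bl/6J strain that were killed at Zeitgeber time (ZT) 16, in the dark phase of a 12 h light and 12 h dark day, and each of the 6 groups held 6 arrays. CTRL and AAKO mice were either fed freely, or fasted for 24 h, or fed and given 1 oral dose of CL316243 at 3 mg/kg by gavage at ZT10. CL316243 is an agonist of the β3 adrenergic receptor, which sits on adipocytes and triggers lipolysis. The age of the animals and the Cre line behind the deletion are not given in the sources used here. The labels number the replicates of each group without naming animals, so the p-values measure the spread between these samples. Both fed groups belonged to one experiment and the fasted and CL316243 groups to another. A difference between fed and fasted or CL316243 livers and a difference between the experiments cannot be told apart, whereas each comparison of genotypes, and that of fasting with CL316243, lay within 1 experiment. The labels mention gavage only for the CL316243 groups, so the agonist and the gavage cannot be told apart either.

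FGF21 is a hormone that hepatocytes release in fasting, when fatty acids reaching the liver activate the nuclear receptor PPARα, and it is also induced by amino acid shortage and other stresses through the transcription factor ATF4. It signals through FGF receptors, chiefly FGFR1, only where the membrane protein beta-klotho, encoded by Klb, is present. GDF15 is a stress-induced member of the TGF-beta family that lowers food intake through GFRAL in the hindbrain. LECT2 is a hepatokine linked to insulin resistance, and Enho encodes adropin, a small secreted protein linked to the choice between fatty acid and glucose oxidation. Ahsg (fetuin-A) and Fetub (fetuin-B) encode abundant plasma proteins of the cystatin superfamily. Fetuin-A binds mineral and inhibits the insulin receptor kinase, and fetuin-B inhibits the egg protease ovastacin.

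The sequence upstream of Fgf21 and of Gdf15 is shown because both genes are known targets of stress and nutrient signals, and the results below turn on when Fgf21 RNA was present. Both are the 250 bases before the annotated start in RefSeq (mouse build GRCm38.p6), written 5′ to 3′ along the gene; Fgf21 lies at chr7:45615491-45615740 and Gdf15 at chr8:70632096-70632345, both on the minus strand. Capitals mark matches to 5 words that were searched on both strands after the sequences had been seen: TATAAA (the TATA box core), CACGTG (the E-box), TGATGCAA (an amino acid response core), AGGTCA (a nuclear receptor core) and TGACGTCA (the cyclic AMP response element).
Fgf21: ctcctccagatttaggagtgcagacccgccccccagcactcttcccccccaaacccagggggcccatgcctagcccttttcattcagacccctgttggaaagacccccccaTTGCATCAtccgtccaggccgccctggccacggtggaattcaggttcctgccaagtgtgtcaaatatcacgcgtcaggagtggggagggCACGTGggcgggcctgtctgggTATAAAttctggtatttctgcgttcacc
Gdf15: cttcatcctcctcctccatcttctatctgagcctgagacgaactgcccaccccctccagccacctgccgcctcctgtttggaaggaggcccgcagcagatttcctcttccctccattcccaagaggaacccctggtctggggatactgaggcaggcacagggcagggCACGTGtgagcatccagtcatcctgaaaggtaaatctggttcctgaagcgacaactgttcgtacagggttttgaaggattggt
The Fgf21 window held TATAAA 28 bases before the start, CACGTG at 50 bases and TGATGCAA, on the opposite strand, at 139 bases. The Gdf15 window held CACGTG at 83 bases. Among 32851 windows of the same length upstream of mouse genes, 12.4% held TATAAA, 6.02% held CACGTG, 0.791% held TGATGCAA, 14% held AGGTCA and 1.55% held TGACGTCA. RefSeq windows were matched for 6 of the 7 genes, 8 windows in all, and Enho is named only. Of the other windows, a second start of Gdf15 held AGGTCA 55 bases before it, and the first start of Fetub held TATAAA at 31 bases. No match of the 5 words was found in the windows of Klb, Lect2 and Ahsg, which says only that these letters are not in those windows.

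Between 33130 and 37200 probes per array, 58.5 to 65.7%, were well above background, and no spot was saturated. All 9 hepatocyte markers measured were well above background on every array. Arrays of a group correlated at 0.9805 to 0.9912 over all probes. On the first principal component of all tested genes the fasted groups stood apart, AAKO fasted livers at 102 to 110 and CTRL fasted livers at 16.7 to 80.9, against values below 0 in the other 4 groups. The highest CTRL fasted liver was replicate 2. Some values of Fgf21, Gdf15, Enho and Fetub are given with and without this array or replicate 5 of its group. Summed adipocyte markers were 7.21 to 16 in AAKO fasted and 4.03 to 13.2 in CTRL fasted livers, on a linear scale on which 1 is the signal at the array's 75th percentile, with 3 of the 7 markers called different between them. Plin1, Lep and Fabp4 were above background on all 36 arrays, Retn on 32, Cidea on 28, Adipoq on 21 and Cfd on 15. Summed stellate cell markers were 110 to 148 and 84.8 to 106 in the same groups, with 2 of 6 called, and neutrophil markers 7.94 to 118 and 0.583 to 73.2, with 3 of 5 called. Summed hepatocyte markers were 4600 to 4930 in AAKO fasted and 4770 to 5330 in CTRL fasted livers, with 6 of 9 called, and 49.2% of all genes were called in this comparison. The part of these cells in the fasted results was not tested. The pancreas also expresses Fgf21. Of 8 exocrine markers, Cela1, Cela2a, Amy2a5 and Ctrb1 were above background on all 36 arrays, Cpa1 on 6, Prss2 and Cpb1 on 2 and Pnlip on none. Their sum was 22.2 to 29.1 in AAKO fasted and 18.9 to 27.8 in CTRL fasted livers, with 3 of 8 called between these groups. The sum was higher in fed livers, at 37.3 to 51.8 in CTRL and 41 to 50.7 in AAKO. After CL316243 it was 43.8 to 68.3 in CTRL and 44.7 to 66.5 in AAKO livers. The part of these markers in the Fgf21 results was not tested. Pnpla2, the gene for ATGL, is deleted in adipose tissue, so its liver probe does not check the labels: its level was 1.30 log2 units higher in AAKO than in CTRL livers after fasting (adjusted p = 8.25e-07), 0.65 higher after CL316243 (adjusted p = 0.0104) and 0.45 lower in the fed state (adjusted p = 0.654, limma).

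Values below are log2 signals after division by each array's 75th percentile, so that 1 unit is a doubling, and a level of one gene is not compared with that of another. Each comparison is from limma, fitted over all arrays with the wash batch as a covariate, with Benjamini-Hochberg adjustment across the 24102 tested genes, and was called where the adjusted p was under 0.05. In fed livers 0 of the 7 genes were called between AAKO and CTRL, where 0.0788% of all genes were called. Before adjustment 2 of the 7, Enho and Fetub, were under 0.05, as were 1638 of the 24102 tested genes. In fasted livers 2 of the 7 were called between genotypes, Fgf21 lower and Klb higher, where 49.2% of all genes were called. After CL316243 2 of the 7 were called, Fgf21 and Lect2, both lower in AAKO, with 24.6% of all genes called. The 6 values of each genotype did not overlap for 0 of the 7 genes in fed livers (0.693% of all genes), for 2 in fasted livers (21.2%) and for 2 after CL316243 (11.3%). In CTRL mice 4 of the 7 were called between fasted and fed livers (43.8% of all genes) and 2 between CL316243-treated and fed livers (23.2%). In AAKO mice 3 were called for fasting (63.6% of all genes) and 1 for CL316243 (31.4%). Between fasting and CL316243, 4 of the 7 were called in CTRL (37.1% of all genes) and 5 in AAKO (60%). The response to fasting differed between genotypes for 2 of the 7 genes (33.6% of all genes), the response to CL316243 for 2 (10.9%), and the genotype difference differed between fasting and CL316243 for 2 (31.8%). Beside these shares, counts out of 7 are no result about the hormone genes as a set, and the results below are those of single genes.

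**Figure D1:**
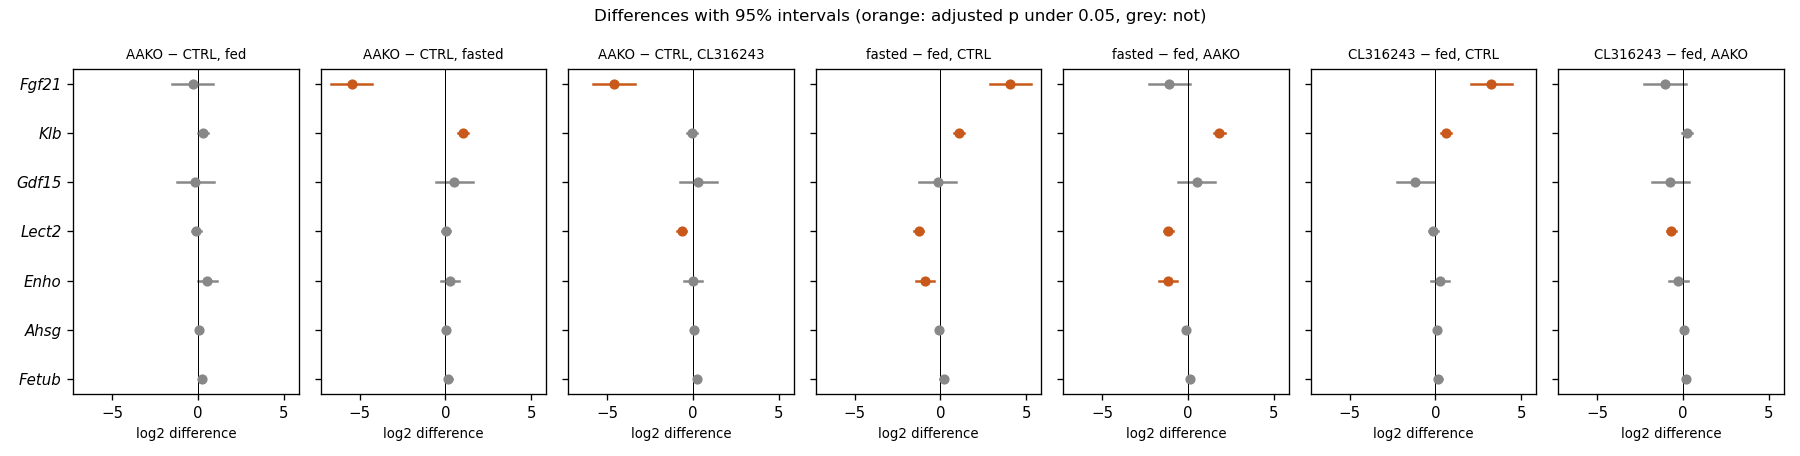
Log2 difference (x axis) of each of the 7 genes (y axis) in 7 comparisons, 1 panel each, with its 95% interval from the limma fit; orange points had an adjusted p under 0.05 and grey points did not. Fgf21 has the lowest and the highest difference, at -5.47 between genotypes in fasted livers and 4.09 between fasted and fed CTRL livers. Every point of Ahsg and Fetub in these panels is grey.

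Fgf21 RNA was high in CTRL livers after fasting and after CL316243, and low in both AAKO groups given the same treatments. In fed CTRL livers its level was -3.42 at the lowest, -1.75 at the median and -0.98 at the highest (mean -1.92 ± 0.956, SD, n = 6), and in fed AAKO livers -3.70, -2.44 and 0.12 (mean -2.20 ± 1.27, SD, n = 6). The fed genotypes overlapped. Fasted CTRL livers reached 0.73, 2.77 and 2.98 (mean 2.17 ± 1.09, SD, n = 6), and fasted AAKO livers -5.17, -3.33 and -1.39 (mean -3.29 ± 1.46, SD, n = 6), with 5 of these 6 arrays well above background. The highest fasted AAKO liver was below the lowest fasted CTRL liver. After CL316243 the values were 0.76, 1.09 and 2.25 in CTRL (mean 1.34 ± 0.634, SD, n = 6) and -4.15, -3.09 and -2.60 in AAKO (mean -3.20 ± 0.608, SD, n = 6), again without overlap. The probe lies at chr7:52869305-52869364 of build mm9, per the array files, a different build from that of the promoter sequences. In bulk liver, fewer cells of a type and less RNA per cell cannot be told apart.

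In CTRL mice Fgf21 rose 17.0-fold with fasting (log2 4.09 ± 0.59, SE; adjusted p = 1e-06, limma) and 9.56-fold with CL316243 (3.26 ± 0.59; adjusted p = 0.000129). In AAKO mice neither response was called, with log2 differences of -1.09 (95% interval -2.29 to 0.11; adjusted p = 0.108) and -1.04 (-2.25 to 0.17; adjusted p = 0.192). The genotypes differed 44.2-fold in fasted livers (AAKO lower by 5.47 ± 0.59 log2 units; adjusted p = 4.3e-09) and 24.0-fold after CL316243 (lower by 4.59 ± 0.59; adjusted p = 7.75e-07), and by -0.29 (-1.49 to 0.91; adjusted p = 0.957) in fed livers. The difference in response was itself called, with an interaction of -5.18 ± 0.83 under fasting (adjusted p = 1.34e-05) and of -4.30 ± 0.84 under CL316243 (adjusted p = 0.000663). An effect of the experiment that was equal in both genotypes would cancel in these 2 values. Ordered by level, fasted CTRL came first and CL316243-treated CTRL next, and these did not differ beyond their spread (0.83, 95% interval -0.37 to 2.03; adjusted p = 0.287). Fed CTRL came next, followed by fed, CL316243-treated and fasted AAKO livers, no neighbours of which differed. The genotype difference under fasting and that under CL316243 did not differ beyond error (-0.88, 95% interval -2.58 to 0.83; adjusted p = 0.467).

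**Figure D2:**
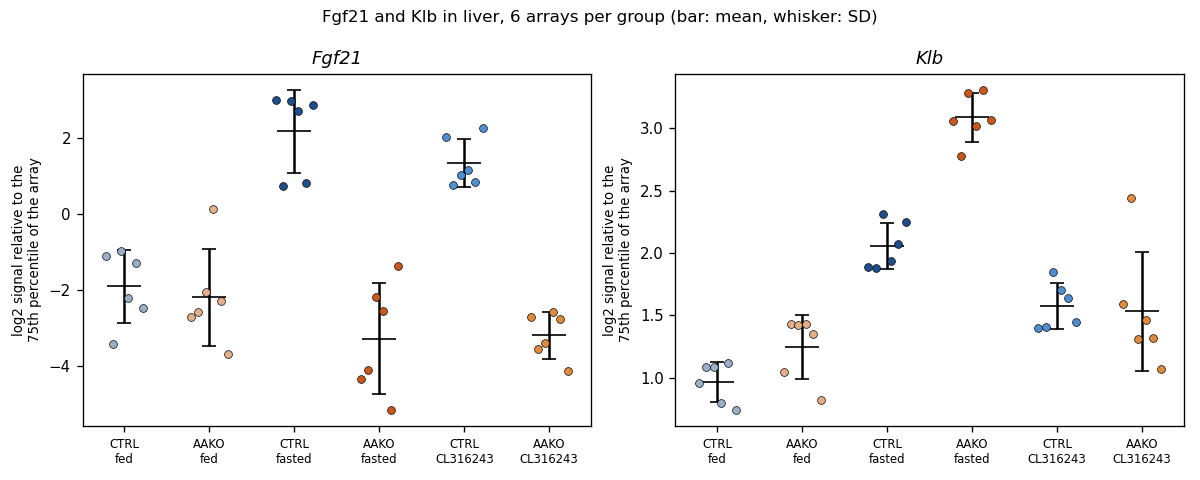
Level of Fgf21 (left) and Klb (right) as log2 signal scaled to the array's 75th percentile (y axis) in the 6 groups (x axis); each point is 1 array, the bar is the group mean and the whisker the SD (n = 6). For Fgf21 the fasted and CL316243-treated CTRL livers sit between 0.73 and 2.98, above all other groups; for Klb the fasted AAKO livers sit between 2.78 and 3.31, above all other groups.

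The size of the Fgf21 differences depended on how background was handled. The normexp correction, here and wherever it is named below, also added an offset of 50 to every signal. The lowest Fgf21 signal in the main processing, before scaling, was 7.18. An added offset shrinks log2 differences of weak signals, and the parts of correction and offset were not tested separately. With normexp and its offset in place of the scanner software's own correction, the genotype differences were -3.78 in fasted and -2.93 in CL316243-treated livers. The CTRL responses were 3.19 and 2.38, and all were still called. Fasted CTRL replicates 2 and 5, at 0.73 and 0.81, were the lowest of a group whose other 4 livers lay between 2.69 and 2.98. Without replicate 2 the fasted genotype difference was -5.74 (adjusted p = 2.56e-09, limma), and without replicate 5 it was -5.77 (adjusted p = 3.86e-09). Within each of the 2 wash batches the fasted genotype difference was -4.77 and -6.16 and the CL316243 one -4.23 and -4.76. The CL316243 interaction was -5.02 (adjusted p = 0.0317) in the first batch and -3.39 (adjusted p = 0.125) in the second. The uncalled fasting response of AAKO mice was called without fed AAKO replicate 6 (-1.37, adjusted p = 0.0498) or without fasted AAKO replicate 6 (-1.46, adjusted p = 0.0327).

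The genes whose levels followed Fgf21 most closely over the 36 arrays, by Pearson's r and as a description only, were Hsdl2 (0.921), Cpt2 (0.919), Plin2 (0.915), Mtm1 (0.913) and Lgals6 (0.907). Cpt2 encodes carnitine palmitoyltransferase II of mitochondrial fatty acid oxidation, and Plin2 coats lipid droplets. The arrays share groups, so much of this likeness is that of the group means: over deviations from the group means r was 0.496 for Hsdl2, 0.642 for Cpt2, 0.539 for Plin2, 0.516 for Mtm1 and 0.569 for Lgals6. Plin2 was lower in AAKO by 3.00 log2 units in fasted livers (adjusted p = 2.08e-11) and, after CL316243, by 2.48 units (adjusted p = 9.42e-09, limma). Cpt2 was lower by 1.27 (adjusted p = 1.6e-11) and 0.83 (adjusted p = 4.77e-07), and Hsdl2 by 1.70 (adjusted p = 1.78e-10) and 1.20 (adjusted p = 8.96e-07). Because these genes were picked by their likeness to Fgf21 on the same arrays, these differences are no separate result. The genes that ran most against Fgf21 were Dnajb5 (-0.871), Arhgdia (-0.858) and Slc35e4 (-0.851), with -0.352, -0.182 and -0.491 over deviations from the group means.

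Klb, the FGF21 co-receptor, was highest in the livers of fasted AAKO mice, a group in which Fgf21 was low. Klb levels were 0.74 at the lowest, 1.03 at the median and 1.12 at the highest in fed CTRL and 0.82, 1.39 and 1.43 in fed AAKO livers, which overlapped. They were 1.88, 2.01 and 2.31 in fasted CTRL and 2.78, 3.06 and 3.31 in fasted AAKO livers, with no overlap. With CL316243 the CTRL livers had 1.40, 1.54 and 1.85 and the AAKO livers 1.07, 1.39 and 2.44, which overlapped, the highest value being that of AAKO replicate 2. The means were 0.97 ± 0.161 and 1.25 ± 0.257 in the fed groups, 2.06 ± 0.186 and 3.09 ± 0.192 in the fasted groups and 1.58 ± 0.186 and 1.53 ± 0.480 after CL316243, CTRL first in each pair (SD, n = 6).

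Klb was 2.04-fold higher in fasted AAKO than in fasted CTRL livers (log2 1.03 ± 0.15, SE; adjusted p = 8.26e-07, limma). The genotype difference was not called in fed livers (0.28, 95% interval -0.02 to 0.59; adjusted p = 0.763) or after CL316243 (-0.07, -0.37 to 0.24; adjusted p = 0.794). Klb rose with fasting in both genotypes, by 1.09 in CTRL (adjusted p = 3.88e-07) and by 1.84 in AAKO (adjusted p = 2.45e-12). The response of AAKO was larger by 0.75 ± 0.21 (adjusted p = 0.00592), and the genotype difference was larger in fasted than in CL316243-treated livers by 1.10 ± 0.21 (adjusted p = 0.000149). With CL316243 Klb rose by 0.61 in CTRL (adjusted p = 0.00296), and in AAKO the difference was 0.26 (adjusted p = 0.2); the difference between these responses was not called (-0.35, 95% interval -0.78 to 0.08; adjusted p = 0.342), but was without CL316243-treated AAKO replicate 2 (-0.52, adjusted p = 0.0344). Fasted livers exceeded CL316243-treated ones by 0.48 in CTRL (adjusted p = 0.0103) and by 1.58 in AAKO (adjusted p = 1.08e-10).

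The Klb values above are of a probe at chr5:65774926-65774985 (mm9), and a second, dimmer probe at chr5:65770402-65770461 was well above background on 27 of the 36 arrays. These were all 6 arrays of each fasted group, 3 of 6 in each fed group, and 4 CTRL and 5 AAKO arrays after CL316243. The fed side of its fasting values was therefore near background. The second probe gave 0.94 for the fasted genotype difference (adjusted p = 0.00114) and 1.00 and 1.56 for fasting in CTRL and AAKO, all called. It lost the call for the fasting interaction (0.57, adjusted p = 0.191), the difference between the fasted and CL316243 genotype effects (0.59, adjusted p = 0.18), CL316243 against fed in CTRL (0.45, adjusted p = 0.164) and fasted against CL316243 in CTRL (0.54, adjusted p = 0.0681). Within wash batches the fasted genotype difference was 0.83 and 1.22, and the fasting interaction 0.43 (adjusted p = 0.442) and 1.07 (adjusted p = 0.0113, limma). The first batch alone also lost the calls for CL316243 against fed in CTRL (0.59, adjusted p = 0.157) and for the difference between the fasted and CL316243 genotype effects (0.81, adjusted p = 0.109). Fasted against CL316243 in CTRL was called in neither batch (0.62, adjusted p = 0.0953, and 0.34, adjusted p = 0.15). The genes of highest r with Klb over the 36 arrays were Reps1 (0.927), Fbrsl1 (0.926) and Dcaf6 (0.925), falling to 0.279, 0.31 and 0.354 over deviations from the group means.

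Genes related to the 7 were followed in 6 lists, whose members were counted by direction. Over all genes, 0.0415% were called higher and 0.0373% lower in fed AAKO against CTRL livers, 21.9% and 27.3% in fasted livers, and 13% and 11.6% after CL316243. In CTRL mice 19.7% were higher and 24.1% lower with fasting, and 10.5% and 12.7% with CL316243. No list count was tested against these shares. From the authors' deposited table the share of calls that were higher was 67.9% in place of 52.6% in fed livers and 42.3% in place of 52.8% after CL316243 between genotypes, and 56.1% in place of 45% for fasting in CTRL. The fed shares rest on only 28 and 19 called genes.

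Of 17 genes listed for FGF21 receptors and readouts of FGF signalling, 16 were tested; Kl was on the array and not bright enough. In fasted livers 9 were higher and 2 lower in AAKO, with a median log2 difference of 0.50 (0.29 with normexp background correction) against -0.03 over all genes tested. In fed livers none was called, and after CL316243 2 were higher and 3 lower (median 0.00, against 0.03). Fgfr1, the main receptor partner of beta-klotho, was 4.38-fold higher in fasted AAKO livers (log2 2.13 ± 0.18, SE; adjusted p = 5.33e-11) and 1.87-fold higher after CL316243 (0.90 ± 0.18; adjusted p = 0.000421, limma). Its mean level was 2.03 ± 0.475 in fasted CTRL and 4.16 ± 0.211 in fasted AAKO livers (SD, n = 6). Egr1, an immediate early gene induced by ERK signalling, was 2.11 higher in fasted AAKO livers (adjusted p = 0.000639) and 1.90 lower in CL316243-treated AAKO livers (adjusted p = 0.00462). Dusp6, a phosphatase that acts on ERK, was lower by 0.94 (adjusted p = 0.00239) and the ETS factor Etv4 by 0.45 (adjusted p = 0.00102) in fasted AAKO livers. After CL316243 the related factor Etv5 was 0.55 higher (adjusted p = 0.0154) and Fgfr3 0.47 lower (adjusted p = 0.0181). The remaining gene called lower was Fgfr4, a main FGF receptor of hepatocytes (-0.32, adjusted p = 0.0215), named after its value was seen.

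Of 14 listed PPARα targets, 13 were higher and none lower in fasted than in fed CTRL livers (median 2.28, against -0.05 over all genes), and 11 were higher and none lower with CL316243 (median 0.89, against -0.03). In AAKO against CTRL, 11 were lower and 1 higher in fasted livers (median -1.78), 12 lower and none higher after CL316243 (median -1.41, against 0.03), and 1 lower in fed livers (Vnn1, -1.35, adjusted p = 0.0109, limma). Vnn1, a pantetheinase, was 26.2-fold lower in fasted AAKO livers (log2 -4.71 ± 0.24, SE; adjusted p = 1.24e-15; -3.97 with normexp background correction), and Ehhadh, of peroxisomal fatty acid oxidation, 11.9-fold lower (-3.57 ± 0.24; adjusted p = 2.97e-13). Angptl4, an inhibitor of lipoprotein lipase, was the 1 listed gene that was higher (0.83 ± 0.23; adjusted p = 0.00362). After CL316243 the fatty acid hydroxylase Cyp4a10 was 9.17-fold lower (-3.20 ± 0.32; adjusted p = 9.29e-09) and the thioesterase Acot1 8.51-fold lower (-3.09 ± 0.38; adjusted p = 3.07e-07). Cpt1a, the entry enzyme of mitochondrial oxidation, was lower by 0.34 (adjusted p = 0.031) in the same comparison.

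**Figure D3:**
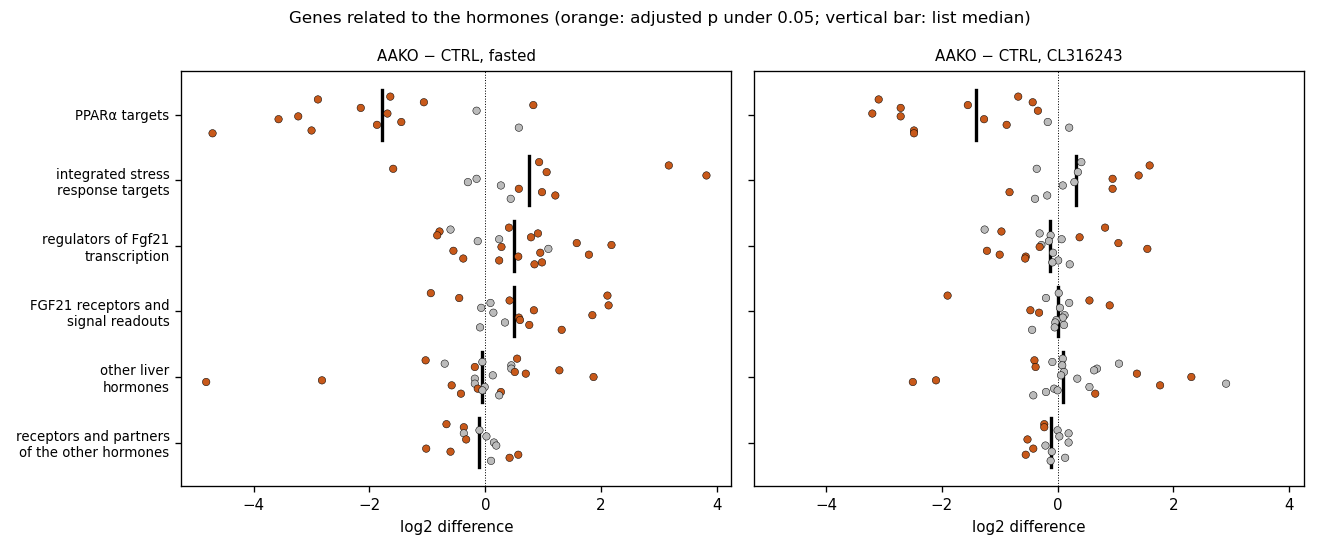
Log2 difference between AAKO and CTRL (x axis) in fasted (left) and CL316243-treated (right) livers for the tested genes of 6 lists (y axis); each point is 1 gene, orange where the adjusted p was under 0.05 and grey otherwise, and the vertical bar is the list median. The PPARα targets lie mostly left of 0, with medians of -1.78 and -1.41, and the other lists lie on both sides.

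Of 20 listed regulators of Fgf21 transcription, 12 were higher and 4 lower in fasted AAKO livers (median 0.49) and 4 were higher and 6 lower after CL316243 (median -0.14). In fed livers none was called. Ppara itself was 1.22 lower after CL316243 in AAKO (adjusted p = 5e-08), and Creb3l3, the liver factor CREBH that acts on Fgf21 together with PPARα, was 0.79 lower in fasted AAKO livers (adjusted p = 7.79e-10, limma). Nr1d1, the clock repressor REV-ERBα, was 2.18 higher (adjusted p = 1.56e-05) and Hdac3, its co-repressor partner, 0.83 lower (adjusted p = 7.13e-11) in the fasted comparison. The coactivator Ppargc1b was 1.79 higher in fasted AAKO livers (adjusted p = 5.92e-06) and 1.00 lower after CL316243 (adjusted p = 0.0121). Nr4a1 and Nfil3, encoding the factors NUR77 and E4BP4, were 1.55 (adjusted p = 0.0142) and 1.05 (adjusted p = 0.0038) higher after CL316243. Of the other genes in these small counts, and named after their values were seen, Ppara was lower in fasted AAKO livers (-0.55, adjusted p = 0.000822), and Atf4 (0.82, adjusted p = 4.46e-07) and Hnf4a (0.38, adjusted p = 0.0111) higher after CL316243. In fasted against fed CTRL livers 4 regulators were higher and 5 lower; this split was 7 and 4 under quantile normalization and 8 and 4 in the authors' deposited table.

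Of 12 listed targets of the integrated stress response, the pathway of ATF4, 7 were higher and 1 lower in fasted AAKO livers (median 0.76) and 4 higher and 1 lower after CL316243 (median 0.32), with none called in fed livers. Chac1, which degrades glutathione, was 14.1-fold higher in fasted AAKO livers (log2 3.82 ± 0.50, SE; adjusted p = 1.55e-07) and 2.64-fold higher after CL316243 (1.40 ± 0.50; adjusted p = 0.039, limma). The stress-induced repressor Atf3 was 9.03-fold (3.17 ± 0.40; adjusted p = 9.06e-08) and 3.01-fold higher (1.59 ± 0.40; adjusted p = 0.00379), and with normexp background correction the values were 1.94 and 0.69, still called. The Chac1 call after CL316243 was lost without the wash batch term (1.32, adjusted p = 0.06). Ppp1r15a, whose product GADD34 reverses the phosphorylation of eIF2α, was 0.58 (adjusted p = 0.00135) and 0.95 (adjusted p = 1.14e-05) higher. Atf5 was 1.59 lower in fasted AAKO livers (adjusted p = 1.84e-10), and Psat1, of serine synthesis, 0.83 lower after CL316243 (adjusted p = 0.0336). Ddit3, for the stress factor CHOP, was the remaining gene called higher after CL316243 (0.95, adjusted p = 8.62e-05), named after its value was seen.

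Gdf15 varied widely between livers of a group, with SDs of 0.607 to 1.58. Its level was -0.42, 1.54 and 1.85 (lowest, median and highest) in fed CTRL, 0.39, 1.03 and 2.41 in fed AAKO, and -0.21, 0.50 and 3.84 in fasted CTRL livers. It was 0.59, 1.75 and 2.38 in fasted AAKO, -0.74, 0.17 and 0.83 in CL316243-treated CTRL, and -1.36, 0.39 and 1.11 in CL316243-treated AAKO livers. All groups overlapped. The means were 1.23 ± 0.846, 1.10 ± 0.733, 1.09 ± 1.58, 1.61 ± 0.741, 0.06 ± 0.607 and 0.31 ± 0.892 in the same order (SD, n = 6), and no neighbours in the order of the means differed beyond their spread. No genotype difference was called: it was -0.14 (95% interval -1.21 to 0.94) in fed, 0.53 (-0.55 to 1.60) in fasted and 0.31 (-0.77 to 1.39) in CL316243-treated livers, with adjusted p = 0.98, 0.435 and 0.727 (limma). Each of these intervals includes differences of more than 1 log2 unit.

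The highest Gdf15 value of all was fasted CTRL replicate 2, at 3.84. Without that array the fasted genotype difference was 1.06 (adjusted p = 0.0588, limma). It was 1.69 (adjusted p = 0.0413) in the first wash batch and -0.63 (adjusted p = 0.554) in the second. The 1 comparison called for Gdf15 was fasted against CL316243 in AAKO mice, higher in fasted livers by 1.24 ± 0.53 (adjusted p = 0.0433). That call was lost without the filter on dim genes (adjusted p = 0.0637), with the slide as a factor (1.29, adjusted p = 0.0637) and in the second wash batch alone (0.20, adjusted p = 0.867). It was also lost without any 1 of 7 arrays, fasted AAKO replicates 1, 2, 3 and 6 and CL316243-treated AAKO replicates 1, 2 and 6, where the value was 0.94 to 1.27. In CTRL the same comparison gave 1.02 (95% interval -0.05 to 2.10; adjusted p = 0.131), and 0.49 (adjusted p = 0.455) without fasted CTRL replicate 2. CL316243 against fed gave -1.17 in CTRL (adjusted p = 0.109; -1.47 and adjusted p = 0.048 without fed CTRL replicate 2) and -0.73 in AAKO (adjusted p = 0.327). The genes of highest r with Gdf15 were Mapk14 (0.723), Tnk2 (0.717) and Synpo (0.706), with 0.614, 0.718 and 0.761 over deviations from the group means.

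Lect2 was lower in fasted than in fed livers of both genotypes, and after CL316243 it was lower in AAKO than in CTRL. Its level was 5.36, 5.93 and 6.02 (lowest, median and highest) in fed CTRL and 5.44, 5.73 and 6.00 in fed AAKO livers. It was 4.19, 4.62 and 4.80 in fasted CTRL and 4.25, 4.59 and 5.01 in fasted AAKO livers, below every fed liver. After CL316243 it was 5.66, 5.70 and 5.81 in CTRL and 4.97, 5.04 and 5.23 in AAKO livers, with no overlap. The means were 5.85 ± 0.240 and 5.75 ± 0.208 fed, 4.58 ± 0.213 and 4.61 ± 0.333 fasted, and 5.73 ± 0.061 and 5.08 ± 0.0997 after CL316243 (CTRL first; SD, n = 6).

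Lect2 fell with fasting by 1.26 ± 0.12 in CTRL (adjusted p = 8.94e-10) and by 1.14 ± 0.12 in AAKO (adjusted p = 1.44e-09, limma), and the difference between these responses was 0.12 (95% interval -0.24 to 0.48; adjusted p = 0.644). After CL316243 Lect2 was 1.57-fold lower in AAKO than in CTRL (log2 -0.65 ± 0.12, SE; adjusted p = 0.000194), against -0.09 (-0.34 to 0.16; adjusted p = 0.92) in fed and 0.03 (-0.22 to 0.28; adjusted p = 0.87) in fasted livers. CL316243 against fed gave -0.68 in AAKO (adjusted p = 8.26e-05) and -0.12 in CTRL (adjusted p = 0.543). The signed genotype difference under fasting, near 0, minus that under CL316243 was 0.68 ± 0.18 (adjusted p = 0.00322, limma). The response to CL316243 differed between AAKO and CTRL by -0.56 ± 0.18 (adjusted p = 0.0354). The last call was lost without the filter on dim genes (adjusted p = 0.0606), with the slide as a factor (-0.57, adjusted p = 0.0652), within either wash batch (-0.64, adjusted p = 0.108, and -0.46, adjusted p = 0.377) and without any 1 of 7 arrays. These were fed AAKO replicates 3 and 4, fed CTRL replicate 6, CL316243-treated AAKO replicates 3 and 6 and CL316243-treated CTRL replicates 2 and 4, with values from -0.55 to -0.45. Within wash batches the CL316243 genotype difference was -0.70 (adjusted p = 0.00316) and -0.58 (adjusted p = 0.0666). Calls were also lost in the second batch for CL316243 against fed in AAKO (-0.50, adjusted p = 0.0917) and in the first for the difference between the fasted and CL316243 genotype effects (0.55, adjusted p = 0.0573). Fasted livers were below CL316243-treated ones by 1.14 in CTRL (adjusted p = 1.16e-08) and by 0.46 in AAKO (adjusted p = 0.00178), where the second batch alone gave -0.26 (adjusted p = 0.249). Tkt (0.946), Gamt (0.942) and Gulo (0.934) had the highest r with Lect2, at 0.653, 0.637 and 0.655 over deviations from the group means. Tkt encodes transketolase of the pentose phosphate pathway. It was lower in AAKO after CL316243 (-0.32 ± 0.09, adjusted p = 0.0102, limma) with -0.04 in fasted livers (adjusted p = 0.741). Because Tkt was picked by its likeness to Lect2 on the same arrays, this like pattern is no separate result.

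Enho was lower in fasted livers, whether set against fed or against CL316243-treated livers. Its level was 5.04, 5.37 and 5.68 (lowest, median and highest) in fed CTRL, 5.52, 5.89 and 6.36 in fed AAKO, 3.75, 4.31 and 6.06 in fasted CTRL and 4.13, 4.88 and 5.09 in fasted AAKO livers. After CL316243 it was 5.36, 5.49 and 6.19 in CTRL and 4.94, 5.56 and 6.27 in AAKO livers. The value of 6.06 belonged to fasted CTRL replicate 5, and the other 5 livers of that group lay at or below 4.62. Enho fell with fasting by 0.89 ± 0.26 in CTRL (adjusted p = 0.00646) and by 1.16 ± 0.26 in AAKO (adjusted p = 0.000287, limma); without replicate 5 the CTRL value was -1.23 (adjusted p = 4.64e-06). Fasted livers were below CL316243-treated ones by 1.17 in CTRL (adjusted p = 0.000638) and by 0.89 in AAKO (adjusted p = 0.00429); without replicate 5 the CTRL value was -1.52 (adjusted p = 2.5e-07). The call for fasting in CTRL was lost in the first wash batch (-0.66, adjusted p = 0.316) and with only the compared groups fitted (-0.89, adjusted p = 0.0569). Those against CL316243 were lost in the first wash batch in CTRL (-1.17, adjusted p = 0.0827) and in the second in AAKO (-0.59, adjusted p = 0.133). The genotype difference was 0.55 (95% interval 0.01 to 1.09; adjusted p = 0.728) in fed, 0.28 (-0.26 to 0.81; adjusted p = 0.411) in fasted and 0.00 (-0.54 to 0.54; adjusted p = 0.999) in CL316243-treated livers. Without fasted CTRL replicate 5 the fasted genotype difference was 0.62 and was called (adjusted p = 0.00895). A second Enho probe, which shares 48 of its 60 bases with the first, gave -0.90 and -1.16 for fasting. C8a (0.886), Slc7a7 (0.879) and Habp2 (0.878) had the highest r with Enho; C8a encodes a complement component and Habp2 a plasma protease.

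Ahsg and Fetub, the fetuins, had the narrowest ranges of the 7 genes. Ahsg lay between 10.21 and 10.75 in all 36 livers, with group means of 10.39 ± 0.111 and 10.45 ± 0.0864 fed, 10.32 ± 0.102 and 10.34 ± 0.0654 fasted, and 10.48 ± 0.160 and 10.56 ± 0.0764 after CL316243 (CTRL first; SD, n = 6). Its genotype differences were 0.06 in fed, 0.02 in fasted and 0.06 in CL316243-treated livers, with adjusted p = 0.886, 0.85 and 0.5 (limma), and their 95% intervals lay within -0.11 and 0.19. Ahsg was lower in fasted than in CL316243-treated livers by 0.16 ± 0.06 in CTRL (adjusted p = 0.0432) and by 0.21 ± 0.06 in AAKO (adjusted p = 0.00505). The direction did not hold under other scalings. Under quantile normalization the values were -0.02 (adjusted p = 0.681) and 0.12 (adjusted p = 0.0055), the second called in the opposite direction, and the authors' deposited table gave -0.05 and 0.04. The CTRL call was also lost without any 1 of 8 arrays, fasted CTRL replicates 1, 2, 3, 4 and 6 and CL316243-treated CTRL replicates 2, 5 and 6, with values of -0.17 to -0.11. The signed genotype difference of Ahsg under fasting minus that under CL316243 was -0.05 (adjusted p = 0.734, limma). Under quantile normalization it was 0.14 and was called (adjusted p = 0.0349, limma). The Ahsg probe was among the brightest on every array, at rank 9 to 17 and signals of 281000 to 379000 before scaling. Whether such brightness narrowed its range was not tested. The SD of the log2 signal of Ahsg (0.112) was below that of the 75th percentile by which each array was scaled (0.145). Its value correlated at -0.67 with that percentile over the 36 arrays, and its closest gene was Rn18s, for 18S ribosomal RNA (r = 0.947).

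Fetub lay between 7.30 and 7.94, with means of 7.41 ± 0.0878 and 7.64 ± 0.169 fed, 7.59 ± 0.171 and 7.77 ± 0.0675 fasted, and 7.58 ± 0.211 and 7.81 ± 0.144 after CL316243 (CTRL first; SD, n = 6). The AAKO mean exceeded the CTRL mean in each condition, by 0.23 (95% interval 0.05 to 0.42), 0.17 (-0.01 to 0.36) and 0.22 (0.04 to 0.41), and none was called (adjusted p = 0.602, 0.117 and 0.0688, limma). The fasted difference was called with normexp background correction (0.19, adjusted p = 0.0498) and without fasted CTRL replicate 5 (0.22, adjusted p = 0.0466). The CL316243 difference was called without CTRL replicate 2 (0.26, adjusted p = 0.0485), CTRL replicate 5 (0.28, adjusted p = 0.0255) or AAKO replicate 6 (0.27, adjusted p = 0.0351). Fasted against fed gave 0.19 in CTRL (adjusted p = 0.097) and 0.12 in AAKO (adjusted p = 0.239), and both were called under quantile normalization (0.27 and 0.25) and from the authors' deposited table (0.28 and 0.27). Fgl1 (0.794), Itih3 (0.754) and Znrf1 (0.734) had the highest r with Fetub; FGL1 is itself a liver-secreted protein.

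**Figure D4:**
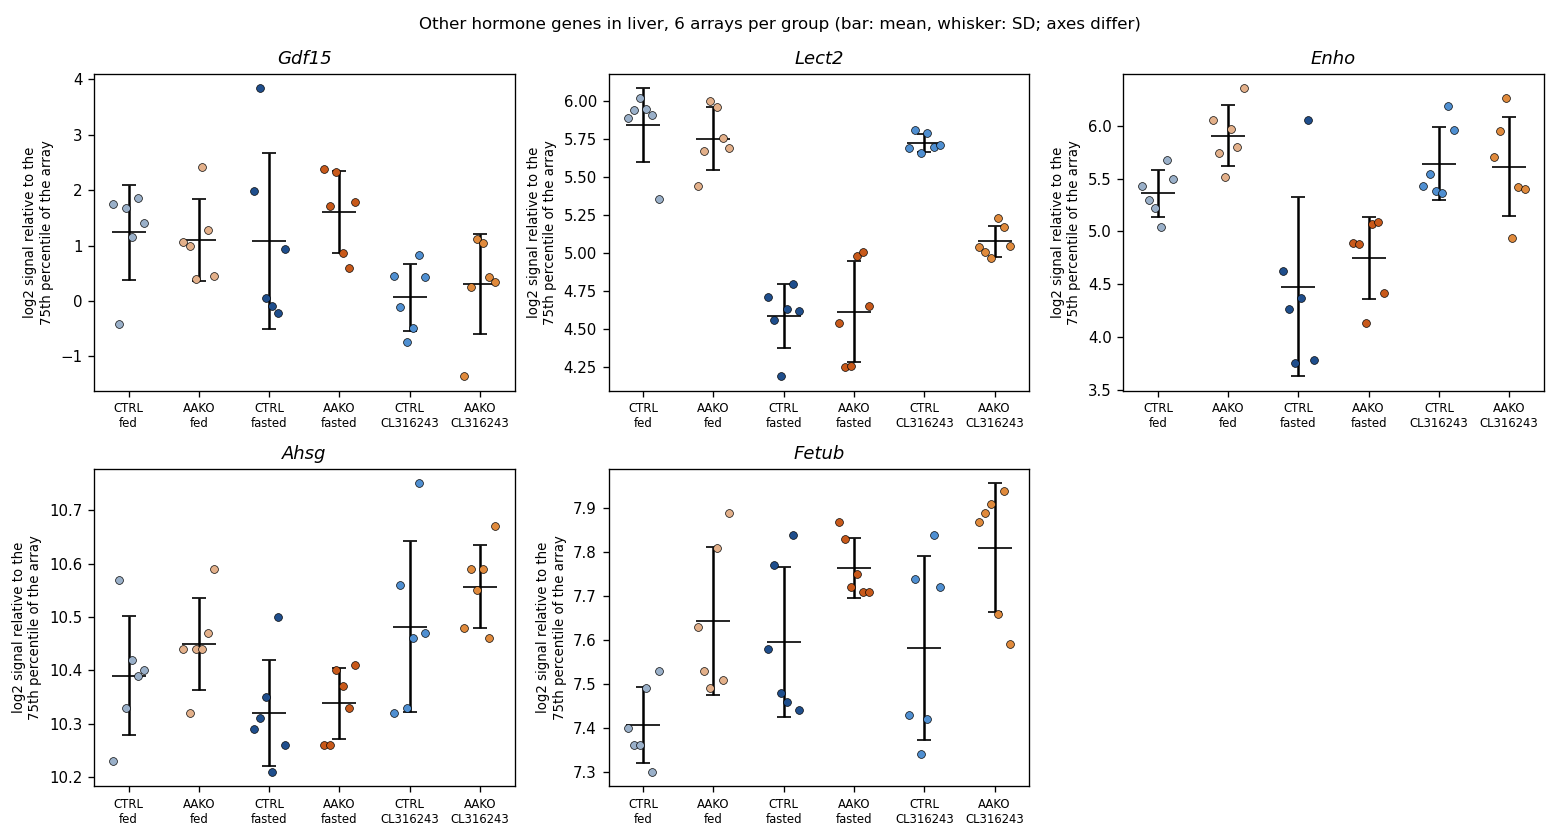
Level of Gdf15, Lect2, Enho, Ahsg and Fetub as log2 signal scaled to the array's 75th percentile (y axis, on a different range in each panel) in the 6 groups (x axis); each point is 1 array, the bar is the group mean and the whisker the SD (n = 6). Lect2 after CL316243 separates CTRL (5.66 to 5.81) from AAKO (4.97 to 5.23), and single livers stand away from their group at 3.84 for Gdf15 and 6.06 for Enho in fasted CTRL.

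Across the 36 arrays the hormone genes did not follow one another closely. Fgf21 and Klb had r = -0.05 and Fgf21 and Gdf15 -0.08. Klb and Lect2 ran opposite (-0.72), with 0.12 over deviations from the group means, and Lect2 and Enho ran together (0.63), with 0.18 over deviations. Enho and Fetub had 0.27 over the arrays and 0.61 over deviations. These values are descriptions over arrays that share groups and wash batches.

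Of 24 other hormones and secreted proteins of the liver that were listed, 23 were tested. In fasted AAKO livers 6 were higher and 7 lower (median -0.05, against -0.03 over all genes). After CL316243 4 were higher and 4 lower (median 0.09, against 0.03), and in fed livers none was called. Over all genes 21.9% were higher and 27.3% lower in fasted livers, and 13% and 11.6% after CL316243. Beside these shares the counts are no result about the list. The activin subunit genes had the lowest values in both comparisons: Inhbe was 28.3-fold lower in fasted AAKO livers (log2 -4.82 ± 0.31, SE; adjusted p = 1e-13) and 5.64-fold lower after CL316243 (-2.50 ± 0.31; adjusted p = 4.03e-07), and Inhba 7.07-fold (-2.82 ± 0.29; adjusted p = 2.13e-09) and 4.29-fold lower (-2.10 ± 0.29; adjusted p = 2.73e-06, limma). In fasted livers normexp background correction gave -4.04 for Inhbe and -1.58 for Inhba, and the authors' deposited table -2.06 for Inhba, all called. The Inhbe means were 3.06 ± 0.609 in fasted CTRL and -1.77 ± 0.617 in fasted AAKO livers (SD, n = 6). Igfbp1, a binding protein of insulin-like growth factors, was 1.87 (adjusted p = 0.00846) and 2.31 higher (adjusted p = 0.00378). Fst, the activin antagonist follistatin, was 1.28 higher in fasted AAKO livers (adjusted p = 0.0128), and Manf, a secreted protein of endoplasmic reticulum stress, 1.77 higher after CL316243 (adjusted p = 5.31e-07). Other calls after CL316243, named after their values were seen, were Hamp, for hepcidin (1.37, adjusted p = 4.28e-06), and Thpo, for thrombopoietin (0.65, adjusted p = 0.00116), both higher, and Dpp4 (-0.38, adjusted p = 9.96e-05), which was lower.

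Of 16 receptors and partners listed for the other 6 genes, 13 were tested; Gfral, Ret and Mep1a were on the array and not bright enough. In AAKO livers 2 were higher and 5 lower after fasting (median -0.10, against -0.03 over all genes). After CL316243 5 were lower and none higher (median -0.12, against 0.03). Over all genes 21.9% were higher and 27.3% lower after fasting, and 13% and 11.6% after CL316243. The counts were not tested against these shares. Met, a receptor that LECT2 binds, was 1.02 lower in fasted AAKO livers (adjusted p = 2.13e-09), and Tie1, an endothelial receptor of LECT2, 0.42 higher (adjusted p = 0.0188, limma). Asgr1, a subunit of the asialoglycoprotein receptor that clears plasma glycoproteins, was lower by 0.67 (adjusted p = 6.19e-10) and 0.23 (adjusted p = 0.0101), and Asgr2 by 0.23 after CL316243 (adjusted p = 0.0318; not called without the wash batch term, -0.22, adjusted p = 0.0631). Gpr19, a proposed receptor of adropin, was 0.52 lower after CL316243 (adjusted p = 0.00173). Rora, a nuclear receptor that is also on the list of Fgf21 regulators, was 0.57 higher in fasted (adjusted p = 0.00109) and 0.55 lower in CL316243-treated AAKO livers (adjusted p = 0.00379). Named after their values were seen, the remaining genes called lower were Asgr2 (-0.37, adjusted p = 0.000262), Gpr19 (-0.33, adjusted p = 0.0236) and Nr1h3 (-0.60, adjusted p = 7.54e-11) in fasted livers and Met (-0.42, adjusted p = 0.00383) after CL316243.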

How the data were processed

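RNA of 36 liver samples was measured on Agilent arrays (design 074809, probe coordinates mm9, per the file headers). Per the labels' protocols, 200 ng of TRIzol-extracted total RNA gave Cy3-labelled cRNA. The deposited scanner files give spot intensity from Feature Extraction 10.10.1.1, background-corrected by that software per the file headers; the submitters' processing notes also name limma. The deposited value table holds log2 values of 36898 probes; each column followed its own array (r 0.99957 to 0.99981), sorted values were the same within each of the 6 groups (tolerance 0.001) while group medians differed (6.88 to 7.01), so its columns share one distribution within but not across groups, which can move comparisons between groups made from it, and the filter that chose its probes is not given in the sources used here.

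Outlier spots were dropped (0.127%), spots of a probe averaged, log2 intensities scaled by the array's 75th percentile, and the brightest probe kept per gene. Genes well above background on at least 5 of 6 arrays of a group were tested in limma 3.58.1 (R 4.3.3) with 6 group means and wash batch, 29 residual degrees of freedom, two-sided, Benjamini-Hochberg adjusted. On simulated data for AAKO against CTRL in fasted livers, over 24102 genes, changes of 0.5, 1, 2 and 4 log2 units were recovered in 42, 80, 100 and 100%. Of the calls 8.52% were false, above the 5% set by the threshold. The simulation was a single draw of independent noise without batches, and only a small part of its genes was changed. In the real comparison 49.2% of genes were called, so these rates do not describe it. The number of arrays limits the precision.

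The members and lists were chosen with earlier results of these data known. Named were all 7 members, the 5 closest and 3 most opposed genes for Fgf21 and the 3 closest for each other member, and of each list the 2 highest and 2 lowest called genes in the fasted and CL316243 genotype comparisons; some list genes are counted and not reported by name here. Alternatives covered background, normalization, filter, probe, wash batch, slide, replicate number, fit and left-out arrays. Same-numbered samples of different groups did not deviate together (median r 0.00 over 90 pairs, 16 over 0.1), so replicate numbers were not taken as pairs.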

Additional observations from a re-analysis of the deposited data

Results flagged for a closer look

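Among the 7 hormone genes, 3 of 42 groups of 6 livers held a sample far from the others by Dixon's test at its 95% critical value, which chance gives in about 1 of 20 groups. They were Gdf15 in fed CTRL replicate 2 (-0.42), Gdf15 in CL316243-treated AAKO replicate 1 (-1.36) and Lect2 in fed CTRL replicate 6 (5.36), each below its group.

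The response to a condition differed between genotypes by an interaction test in limma for Fgf21, at -5.18 for fasting and -4.30 for CL316243. It also differed for Klb under fasting (0.75) and for Lect2 under CL316243 (-0.56). The signed genotype difference, AAKO minus CTRL, also differed between fasted and CL316243-treated livers. For Klb it was 1.03 in fasted and -0.07 in CL316243-treated livers, a contrast of 1.10. For Lect2 it was 0.03 in fasted and -0.65 in CL316243-treated livers, a contrast of 0.68, and only the CL316243 difference was called.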

How the results depend on the processing

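Of 84 member results, 29 were called; 28 of these kept their direction under every planned setting, 13 also kept the call under every setting besides left-out arrays, and 26 kept it under every left-out array. The exception in direction was Ahsg in fasted against CL316243-treated AAKO livers, at 0.04 from the authors' deposited table and 0.12 under quantile normalization. With the replicate block, 51 of 53 reported member results kept direction and call; Gdf15 in fasted against CL316243-treated AAKO livers lost its call (1.24, adjusted p = 0.0651, limma) and Enho between genotypes after CL316243 turned sign (0.00, adjusted p = 0.993). Within single wash batches fewer arrays were fitted. The cause of other changes was not tested. The 48 named values of list genes kept direction and call under 4 other scalings and without fasted CTRL replicate 2, a choice made after seeing the data, and 46 did so without the wash batch term, the exceptions being Chac1 and Asgr2 after CL316243. The authors' deposited table moved the median of all genes from -0.08 to 0.05 for fasted against CL316243-treated AAKO and from -0.10 to 0.01 for fasted against fed AAKO livers. Weak signal limited Fgf21, with 35 of 36 arrays well above background, and the second Klb probe.

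Uncalled genotype differences and Fgf21 values changed sign as follows, beside the Lect2 fasting interaction (-0.09 in wash batch 1) and Gdf15 for CL316243 against fed in AAKO (0.24 in wash batch 2). In wash batch 1, Fgf21 was 0.80 between fed genotypes and 0.75 between fasted and CL316243-treated AAKO, Klb 0.02 between CL316243 genotypes, Gdf15 0.55 between fed and -0.16 between CL316243 genotypes, Lect2 -0.15, Enho -0.05 and Ahsg -0.02 between fasted genotypes, and Ahsg -0.04 between CL316243 genotypes. In wash batch 2, Fgf21 was 0.00 for CL316243 against fed in AAKO, Gdf15 -0.63 between fasted genotypes and Enho 0.02 between CL316243 genotypes, and the called Fgf21 CL316243 interaction was -3.39 and no longer called. Second probes gave 0.35 for Klb and 0.01 for Enho between CL316243 genotypes, and the slide as a factor gave 0.07 for Enho. The percentile over detected probes gave -0.01 for Lect2 and -0.02 for Ahsg between fasted genotypes. Quantile normalization gave 0.14 for the Ahsg genotype difference under fasting minus that under CL316243, which was then called (adjusted p = 0.0349, limma). It gave -0.01 for Ahsg between fed and -0.08 between CL316243 genotypes, where the authors' deposited table gave -0.05. Fgf21 between fasted and CL316243-treated AAKO was 0.15 in that table and 0.02 with only those groups fitted.

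Members called moved as follows: in wash batch 1 to 1 for CL316243 against fed in CTRL, 1 for fasted against CL316243 in CTRL, 1 for the fasting interaction, 1 for the CL316243 interaction and 0 for the difference between fasting and CL316243. In wash batch 2 they moved to 1 between CL316243 genotypes, 0 for CL316243 against fed in AAKO, 2 and 1 for fasted against CL316243 in CTRL and AAKO, and 0 for the CL316243 interaction. Without the filter, or with the slide as a factor, the CL316243 interaction had 1.

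Leaving out single arrays gave 2 to 4 members called between fasted genotypes and 1 to 3 for the CL316243 interaction. Fgf21 ranged from -1.46 to -0.63 for fasting in AAKO and from -0.44 to 0.30 between fasted and CL316243-treated AAKO. Genotype differences ranged from 0.00 to 0.05 (Ahsg, fasted), -0.13 to 0.18 (Enho, CL316243), -0.45 to 0.04 (Gdf15, fed), -0.24 to 0.03 (Klb, CL316243) and -0.05 to 0.11 (Lect2, fasted).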
